A study of Mus musculus with 6 samples.

Results

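Mature Ccr7+ dendritic cells were described among CD45+ cells isolated with beads from pancreatic tumors grown under the skin, in 3 treatment groups named PBS, mono-IL10 and IL10/2-Trikine. The cells were chosen by their own counts and not by clustering. A barcode with at least 1000 genes, at most 10% mitochondrial UMIs and 1 hashtag holding at least 2/3 of its antibody UMIs was selected on at least 2 UMIs of Ccr7, at least 2 UMIs of Fscn1 and at least 5 UMIs of H2-Aa plus H2-Ab1. It was kept when it carried at most 3 UMIs of C1qa, C1qb and C1qc together, at most 3 UMIs of Krt8 and Krt18 together, no UMI of Cd3e or Ncr1 and not both Xcr1 and Clec9a, and when the authors had not annotated it as a T or NK cell. A UMI is a molecular tag that counts 1 captured transcript. This left 95 cells of 60351 barcodes that passed the same quality and hashtag limits, out of 104682 that passed the quality limits alone and 130444 in all. The PBS library held 41 of them, the mono-IL10 library 39 and the IL10/2-Trikine library 15.

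All groups carried 6694c2vTRP1 tumors, grown from 250000 cells of a line from a KPC mouse model of pancreatic cancer, and all were injected intraperitoneally every other day from day 8, for 2 doses, before tumors were taken on day 14. PBS was the vehicle. Mono-IL10, at 26 μg per mouse, is a monomeric form of IL-10, and IL10/2-Trikine, at 30.6 μg per mouse, is the same cytokine joined to a module that binds the IL-2 receptor beta chain. The mice were C57BL/6, and the study's methods name males and females for this tumor model. Their age in this experiment, and which mice were of which sex, are not given in the sources used here. Each group was 5 hashtagged mice pooled into 1 library, so the mouse was the replicate, and treatment and library cannot be told apart in any comparison below.

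Dendritic cells take up antigen in tissue and, when they mature, turn on the chemokine receptor Ccr7, which guides them to lymph nodes, together with Fscn1, an actin-bundling protein of their cell extensions. Mature cells stop sampling new antigen, stabilize the MHC molecules already loaded, display costimulatory and inhibitory ligands, and secrete chemokines and cytokines that draw in and instruct T cells. Ccl22 and Ccl17 are such chemokines. Both are ligands of Ccr4, a receptor of regulatory and other T cells. Dendritic cells respond to IL-10, and IL-10 is known to restrain their maturation and their IL-12 output.

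The label was checked against its markers. Ccr7 ranged from 3 to 81 UMIs per cell with a median of 21, so no cell lay at its limit of 2. Fscn1 ranged from 2 to 44 UMIs with a median of 8. There were 12 cells at the limit of 2 UMIs, and 10 barcodes met every other criterion with 1 UMI. Dropping the Fscn1 criterion would have added 290 barcodes, dropping Ccr7 9, dropping the H2 genes 42, the complement limit 96, the keratin limit 20 and the hashtag limit 40. Of the markers that the selection did not use, Ccl22 was found in 85.3% of the cells and Cacnb3, a calcium channel subunit, in 89.5%. In 80 immature dendritic cells of the same libraries, defined by Xcr1 and Clec9a or by Cd209a without Ccr7, these shares were 10.0% and 1.25%, although those cells were the deeper ones. Median UMIs per cell were 5668, 6979 and 3023 in mature cells of the PBS, mono-IL10 and IL10/2-Trikine libraries and 8777, 9924 and 3224 in immature cells. The markers named for the cells were thus present in them.

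Signs of other cells were uneven, and not low in every mouse or library. Over 20 macrophage and monocyte markers, the pooled mature cells of the 3 libraries held 1621, 3780 and 3110 CPM (UMIs per 1000000 gene UMIs, given in the order PBS, mono-IL10, IL10/2-Trikine), against 36882 in 16175 macrophages. The highest mouse stood at 22358 CPM in mono-IL10, where 1 cell held 216 of the library's 309 Apoe UMIs. Over 10 neutrophil markers the pooled levels were 1555, 49.8 and 1465 CPM, over 14 tumor epithelial markers 1863, 1966 and 5651 CPM, over 10 endothelial markers 58.3, 59.8 and 1286 CPM, and over 10 fibroblast markers 257, 89.7 and 1869 CPM, the last mostly Sparc (957 CPM) and Fn1 (837 CPM). Of the tumor epithelial UMIs of IL10/2-Trikine, 1 cell of 8902 UMIs held 199 of 378, with 104 of S100a6 and 82 of Clu. Without that cell the level was 3087 CPM. In the cells with most such UMIs, S100a6 made up 87 of 92 in PBS and 53 of 53 in mono-IL10. Of this list Krt7, Cldn4, Cldn7, Tff1 and Krt20 were at 0 in all 95 cells. A cell of IL10/2-Trikine mouse 2, the deepest of that library at 13017 UMIs, held all 86 endothelial UMIs of the library and 65 of its 125 fibroblast UMIs, and without it these levels were 0 and 1114 CPM. Over 10 plasmacytoid dendritic cell markers the levels were 315, 140 and 613 CPM, and a cell of PBS mouse 1 held 54 of the 81 UMIs of PBS, among them 15 of Klk1, 11 of Cox6a2 and 7 of Siglech, with Ccl17 and Ccl22 at 0. Other lists were detected in part. At 0 in all 95 cells were 7 of 14 T cell markers (Trbc1 and Lck among them), 6 of 12 of NK cells (Klrb1c, Eomes), 8 of 12 of B cells (Cd79a), 7 of 10 of mast cells and basophils (Cpa3) and 4 of 10 of fibroblasts (Pdgfra). Of the rest, Il7r of the T cell list was found in 91.6% of the cells, Kit of the mast cell list in 43.2%, Klrd1 of the NK list in 16.8%, Trac in 3.16% and Ighm of the B cell list in 1.05%. In 14 cells (3 of PBS, 6 of mono-IL10 and 5 of IL10/2-Trikine) the macrophage, neutrophil and tumor markers exceeded 1% of UMIs. The libraries shared 408 to 700 barcode sequences pair by pair, and 0 barcodes were mature dendritic cells in 2 libraries. The immune barcodes (at least 1 UMI of Ptprc, which encodes CD45, and at most 3 keratin UMIs) of the IL10/2-Trikine library had more Xist than the others (1169 to 1288 CPM per mouse against 791 to 856 in PBS and 650 to 739 in mono-IL10), and so had its mature dendritic cells (1241 CPM against 424 and 382). These differences move with the library, and their part in the comparisons was not tested unless a value without those cells is given.

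The promoters of Ccl17, Ccl22 and Ifitm1 are shown. Ccl17 and Ifitm1 were called between treatments below, while Ccl22 was called in neither fit and lies near Ccl17 on chromosome 8. Each promoter is the 250 bases before the RefSeq gene start, on the plus strand of GRCm38.p6, whereas the counts were made on GRCm39. They span chr8:94810203-94810452, chr8:94745434-94745683 and chr7:140967826-140968075. Capitals mark the STAT-type motif TTCNNNGAA.
Ccl17: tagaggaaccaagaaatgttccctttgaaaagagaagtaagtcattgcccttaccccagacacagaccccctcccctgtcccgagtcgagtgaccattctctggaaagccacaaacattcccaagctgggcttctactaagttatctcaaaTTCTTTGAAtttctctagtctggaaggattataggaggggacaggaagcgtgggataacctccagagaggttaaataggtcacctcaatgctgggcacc
Ccl22: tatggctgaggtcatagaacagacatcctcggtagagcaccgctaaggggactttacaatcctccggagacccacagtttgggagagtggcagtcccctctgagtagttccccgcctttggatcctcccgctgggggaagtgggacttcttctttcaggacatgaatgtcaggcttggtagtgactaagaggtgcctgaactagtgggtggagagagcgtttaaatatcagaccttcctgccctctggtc
Ifitm1: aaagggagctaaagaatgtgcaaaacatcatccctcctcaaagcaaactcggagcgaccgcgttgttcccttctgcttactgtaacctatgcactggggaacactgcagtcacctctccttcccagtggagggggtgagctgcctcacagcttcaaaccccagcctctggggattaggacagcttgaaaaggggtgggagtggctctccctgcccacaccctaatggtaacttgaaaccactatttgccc
The Ccl17 window held 1 such match at -99, and the other windows held no match to it or to an NF-kB-type motif (GGG, any 2 bases, TT, any base, CC), both searched on both strands. Over all 32851 RefSeq promoters 7.02% held the first motif in this window and 4.11% the second. Of 31 maturation genes with a promoter in the table, 2 held the first and 2 the second. A match of letters is not a bound site.

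The first comparison asked what set the selected cells apart from their immature relatives. No test was made, since the selection used the same counts. The share of all genes that were higher in mature cells is not given, so the list counts below have no background and are description only. All levels are CPM over pooled cells and are compared for 1 gene at a time, since levels of different genes depend on how well each is captured. Of 35 genes of a maturation list (which holds neither Ccr7 nor Fscn1), 33 had enough UMIs to be compared and all 33 were higher in mature than in immature dendritic cells. The list holds genes high in mature cells and was chosen with earlier results of these data known. This count is therefore no independent support for the label. Ccl22 stood at 1710 CPM against 22, and Cacnb3 at 557 against 2.93. Ccl5, a chemokine for T and NK cells, stood at 3753 against 10.3, and was present in annotated T and NK cells at 2779. Il4i1, an amino acid oxidase that restrains T cells, was at 318 CPM and at 0 in immature cells. Cd200, a ligand that dampens myeloid cells, was at 389 against 4.40, and Tbc1d4, a regulator of vesicle traffic, at 1814 against 148. In each of the 10 mice with at least 2 cells of both kinds, Ccl22, Cacnb3, Ccl5, Il4i1, Cd200 and Tbc1d4 were higher in the mature cells.

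The 20 genes with the highest ratio to any other gate at 50 CPM or more were Il4i1, Gm13546, Ccl22, Slc4a8, Syn3, Mreg, Cd200, Nudt17, Cacnb3, Apol7c, Mmp25, Egf, Poglut1, Tbc1d4, Eml6, Tmem39a, Arhgap28, Dnah2, Gypc and Gyg. The first of them, Il4i1, reached 3.93 CPM in the next highest gate, the annotated T and NK cells. The last, Gyg, had a ratio of 7.78 and makes the primer of glycogen. Apol7c, an apolipoprotein L family gene, was at 52.8 CPM but was found in only 9.47% of the cells.

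**Figure D1:**
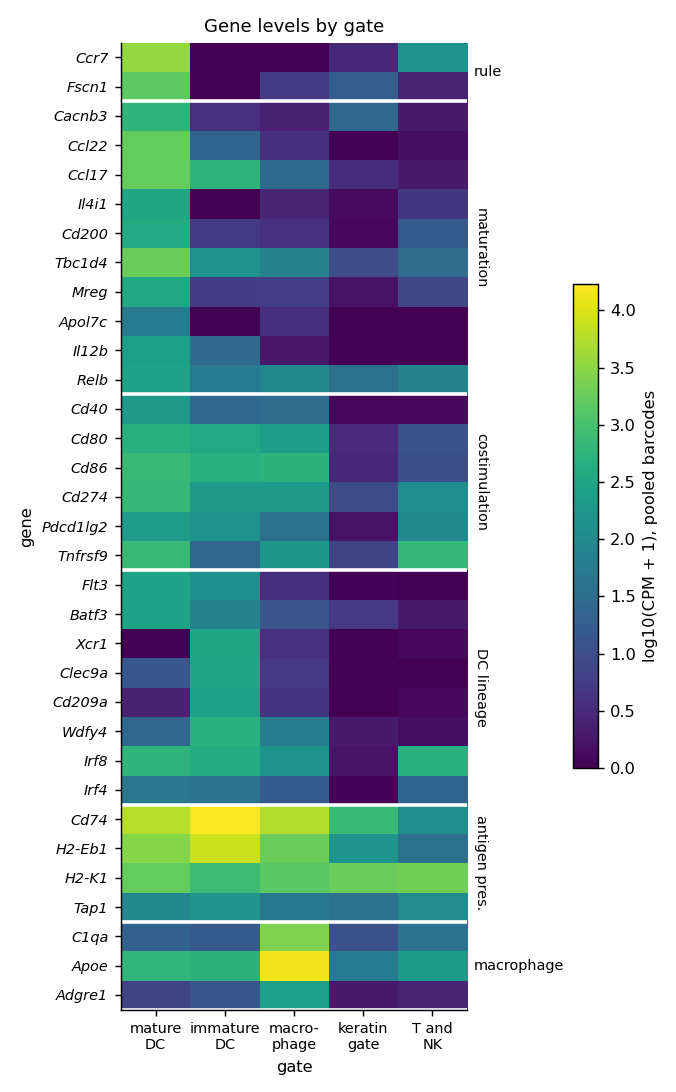
Levels of named genes (rows, grouped by role) in 5 gates (columns), as log10(CPM + 1) over pooled barcodes of the 3 libraries. Maturation genes such as Ccl22 (1710 CPM) and Cacnb3 (557 CPM) are brightest in the mature dendritic cells, while Cd74 and H2-Eb1 are brightest in immature dendritic cells.

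Most costimulatory genes and most inhibitory and tolerogenic genes were higher. Of 20 costimulatory genes 13 could be compared, of which 11 were higher in mature cells. Cd40, the receptor through which helper T cells license dendritic cells, was at 192 CPM against 26.4, and Cd80, a ligand of Cd28, at 490 against 358. Cd86, the other Cd28 ligand, was at 718 against 456. Tnfrsf9, known as 4-1BB, was at 705 against 24.9. Of 24 inhibitory and tolerogenic genes 19 could be compared, of which 13 were higher and 6 lower. Il1r2, a decoy receptor for IL-1, was lower at 734 against 1240. Cd274, which encodes the inhibitory ligand PD-L1, was at 673 against 195, and Pdcd1lg2, encoding PD-L2, at 210 against 144. Genes of both classes were thus present in the same pool of cells.

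NF-kB genes were higher and cell cycle genes lower. Among NF-kB components, 20 of 23 compared genes were higher in mature cells, including Rel (2292 against 1025 CPM), Nfkb1 (1312 against 410) and Relb (277 against 51.3), the partner of the noncanonical pathway. All 17 compared cell cycle genes were lower, and Mki67, a proliferation marker, was at 12.8 CPM against 86.5. Of the 95 cells, 12 carried at least 1 UMI of Mki67, Top2a, Cdk1, Birc5 or Ube2c and 0 carried 3 or more.

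Antigen presentation split by class. Of 16 compared genes of the MHC class II list, 12 were lower in mature cells, with Cd74, the invariant chain, at 5740 CPM against 16881 and H2-Eb1 at 2886 against 8069. Both were lower in all 10 of these mice. Ciita, the master regulator of these genes, was at 16 against 98.2. H2-Aa and H2-Ab1 were left out, being part of the selection. For MHC class I the pattern differed, with 15 of 23 compared genes higher, H2-K1 at 1667 CPM against 789, H2-D1 at 1393 against 787 and B2m at 4282 against 2156. Tap1, a peptide transporter of the same list, lay the other way at 91.2 against 161.

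**Figure D2:**
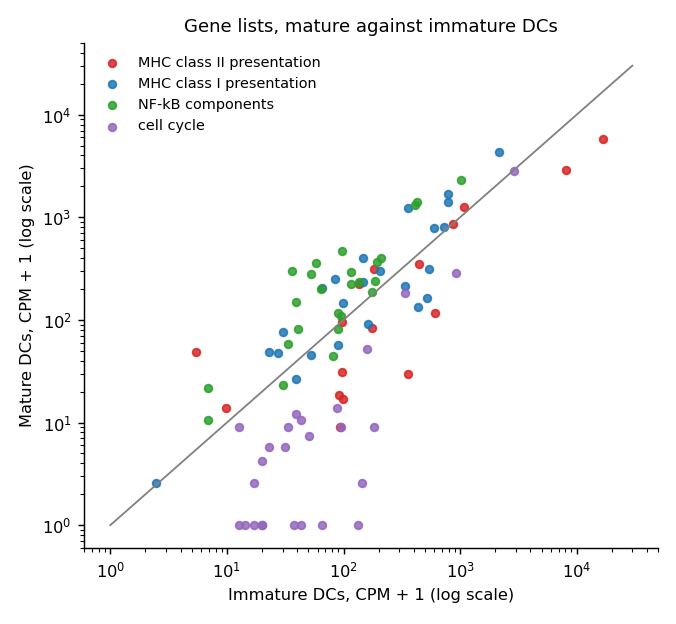
Each point is a gene of 1 of 4 lists, with its level in immature dendritic cells on the x axis and in mature ones on the y axis (CPM + 1, log scales, pooled cells; the line marks equal levels). NF-kB genes lie mostly above the line (20 of 23 compared) and cell cycle genes all below it (17 of 17 compared), while MHC class II genes lie mostly below it (12 of 16).

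The lineage of the mature cells was hard to read. Markers of the immature types were low, but the selection excluded cells with both Xcr1 and Clec9a, and the immature cells were gated on those genes or on Cd209a, so none of the 3 is compared. Of the 682128 UMIs of the immature pool 446680 came from the gate on Xcr1 and Clec9a, so type 1 levels in that pool depend on how it was gated. Wdfy4, needed by type 1 dendritic cells for cross-presentation, was at 25.6 CPM against 491. Over the type 1 list 13 of 16 compared genes were lower in mature cells and over the type 2 list 8 of 14, whereas Batf3, a type 1 factor, was at 285 against 76.2. A list of general dendritic cell genes was mixed, with 7 of 12 compared genes higher, such as Flt3, the growth factor receptor of the lineage, at 280 against 129, and 5 lower, such as the transcription factor Spi1 at 181 against 303. Counts of cells carrying these lists could not sort the cells by lineage, since each list holds a gene found in nearly every cell, Id2 in 96.8% and Il1b in 97.9% of them. With the 18 cells under 4000 UMIs left out and the others thinned to that depth, 76 of 77 carried at least 2 UMIs of the type 1 list and 76 of 77 of the type 2 list, and no lineage is read from this.

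Receptors for the injected cytokines were measured at low levels. Il10ra was at 86.4 CPM in mature cells, 90.9 in immature cells and 123 in macrophages, and Il10rb at 24, 22 and 92.3. Il2rb, the chain that the Trikine's second module binds, was found in 2.11% of the mature cells (8.00 CPM) against 857 CPM in annotated T and NK cells and 55.9 CPM in macrophages. Immature dendritic cells, which were deeper, had it in 1.25%, and at 2 of 95 cells this was not read as expression. Il2ra, the alpha chain, was at 130 CPM against 24.9 in immature cells, and Il15ra, which presents IL-15, at 64.0 against 4.40. Stat3, the main transducer of IL-10, was at 705 against 176.

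The next comparison asked whether treatment altered how many mature dendritic cells there were. Per mouse they made up 0.303% ± 0.142 of the immune barcodes of PBS mice, 0.344% ± 0.313 under mono-IL10 and 0.135% ± 0.0992 under IL10/2-Trikine (SD, n = 5 each). The PBS mice held 3, 15, 5, 14 and 4 cells, the mono-IL10 mice 12, 18, 2, 5 and 2, and the IL10/2-Trikine mice 5, 7, 1, 0 and 2. The 0 came from 844 immune barcodes, which allows a share of up to 0.355%. Pooled by library the shares were 0.321% (95% Wilson interval 0.237 to 0.436), 0.356% (0.260 to 0.486) and 0.141% (0.0856 to 0.233), where the intervals cover counting error only. Immune barcodes are defined as above. The groups overlapped, and no difference passed the test. Mono-IL10 minus PBS was 0.0412 percentage points (exact two-sided permutation test, p = 0.873, adjusted 0.889), IL10/2-Trikine minus PBS was -0.169 (exact permutation p = 0.0635, adjusted 0.381) and IL10/2-Trikine minus mono-IL10 was -0.210 (exact permutation p = 0.151, adjusted 0.452), adjusted over 6 tests, with 0.00794 the smallest p the design allows. Without mono-IL10 mouse 2 the last difference was -0.0772 and mono-IL10 minus PBS was -0.0913.

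The IL10/2-Trikine result depended on the denominator. Among all barcodes that passed the quality and hashtag limits, in place of immune ones, the share was 0.0538% ± 0.0342 against 0.202% ± 0.0910 in PBS (SD, n = 5 each), a difference of -0.149 percentage points with no overlap between the groups (exact permutation p = 0.00794, the smallest possible, adjusted 0.0476). Immune barcodes were 10617 of 24032 in the IL10/2-Trikine library, 12757 of 19227 in PBS and 10962 of 17092 in mono-IL10. This denominator thus held more non-immune barcodes in IL10/2-Trikine, whose part was not tested. The IL10/2-Trikine library was also shallower. When barcodes under 4000 UMIs were left out (3729, 2486 and 8306 of the 3 libraries) and the others thinned to 4000 UMIs before the limits were applied, 30, 31 and 3 cells were left, or 0.316%, 0.362% and 0.0641% of the immune barcodes. Before thinning, 35, 37 and 5 of the 41, 39 and 15 mature cells had 4000 UMIs or more, so most of the loss in IL10/2-Trikine was by this limit. Among gated dendritic cells, mature and immature, the mature share was 56.4% ± 13.7 in PBS, 62.1% ± 21.1 in mono-IL10 (SD, n = 5 each) and 58.9% ± 27.7 in IL10/2-Trikine (SD, n = 4, since 1 mouse had no such cell). These shares overlapped, with exact permutation p = 0.635, 0.889 and 0.849 for the 3 comparisons in the same order, and adjusted p = 0.889 for each. Pooled by library the mature share was 50.6%, 63.9% and 45.5%. The 100% of IL10/2-Trikine mouse 3 rested on 1 cell, and without that mouse IL10/2-Trikine minus PBS was -11.25 percentage points.

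**Figure D3:**
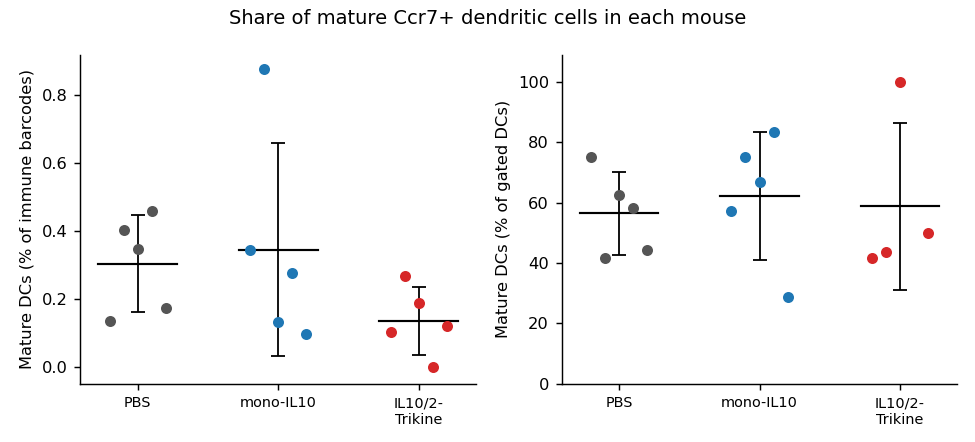
Share of mature dendritic cells per mouse, among immune barcodes (left) and among gated dendritic cells (right), in percent. Points are mice, horizontal lines means and vertical bars SD. The IL10/2-Trikine mice lie at the low end on the left (mean 0.135% against 0.303% in PBS), and overlap the other groups.

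Gene levels were then compared between treatments. Only 2 PBS mice (15 and 14 cells) and 2 mono-IL10 mice (12 and 18 cells) held 10 or more mature dendritic cells, so the planned test covered mono-IL10 minus PBS alone. Of 1458 genes tested with edgeR's quasi-likelihood test, 1 was called at an adjusted p under 0.05, or 0.0686%, and 91 had an unadjusted p under 0.05. This gene was Ccl17, which fell by 2.19 ± 0.29 (SE) on the log2 scale (adjusted p = 0.0324). A second fit, added after the counts were seen, took every mouse with at least 2 such cells (5 PBS, 5 mono-IL10 and 3 IL10/2-Trikine mice). It called 2 of 784 genes for mono-IL10 minus PBS, or 0.255%. Ccl17 fell by 3.21 ± 0.62 and Ifitm1, an interferon-induced membrane protein, rose by 3.16 ± 0.62 (adjusted p = 0.0308 for each). For IL10/2-Trikine minus PBS and for IL10/2-Trikine minus mono-IL10 the count was 0 of 784, or 0%, with 64 and 70 genes at an unadjusted p under 0.05, while DESeq2 called 0 and 2.

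Ccl17 was present in every PBS mouse, at 581, 3210, 5792, 2371 and 3999 CPM. In the mono-IL10 mice it was at 543, 643, 49.5, 0 and 79.1 CPM. Only the lowest PBS mouse, with 3 cells, lay within the mono-IL10 range. One of those cells was the one with plasmacytoid markers, and without it the mouse stood at 848 CPM. The IL10/2-Trikine mice with at least 2 cells were at 615, 1773 and 1177 CPM, all within the PBS range and 1 of them within the mono-IL10 range, a log2 difference from PBS of -1.33 ± 0.70 that did not pass the test (adjusted p = 0.646). A Ccl17 UMI was found in 33 of 41 PBS, 20 of 39 mono-IL10 and 9 of 15 IL10/2-Trikine cells, and the deepest cells were those of mono-IL10. Single cells weighed on some mice. In PBS mouse 3, 1 of 5 cells held 121 of 195 Ccl17 UMIs, and in PBS mouse 5, 1 of 4 held 71 of 104. In mono-IL10 mouse 2, 1 of 18 cells held 49 of 96. The call in the planned fit was lost without PBS mouse 4, when 0 genes were called, and with at least 3 UMIs of Ccr7 and Fscn1 required. In the second fit it was lost without any 1 of PBS mice 3, 4 and 5 and mono-IL10 mice 2, 3 and 5, and without IL10/2-Trikine mice 1 or 5. The size stayed between -3.73 and -2.91 with 1 mouse left out. It was not called without the 14 cells rich in markers of other cells, at -3.12, with no complement or keratin UMI allowed, at -3.14, or with at least 2000 genes, at -3.04. It was called, at -3.27, without the 2 cells in which plasmacytoid or endothelial markers exceeded 0.5% of UMIs (a setting chosen after these values were seen).

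Ccl22, the other Ccr4 ligand, showed the same direction without passing edgeR's test in either fit. It stood at 1003, 2183, 5703, 2034 and 6191 CPM in the PBS mice and at 980, 750, 198, 1290 and 158 in the mono-IL10 mice, where only mouse 4 lay above the lowest PBS mouse. Without the cell with plasmacytoid markers that PBS mouse stood at 1464 CPM. The log2 difference was -1.27 ± 0.27 in the planned fit (adjusted p = 0.177) and -2.22 ± 0.54 in the second (adjusted p = 0.105). It was called in 2 of 11 alternatives to the planned fit, without mono-IL10 mouse 1 or 2 (adjusted p from 0.000323 to 0.864 over the 11), and in 4 of 25 to the second, with no filter, with only these groups, after thinning and without PBS mouse 1 (4.33e-05 to 0.394). The IL10/2-Trikine mice with at least 2 cells were at 224, 1565 and 441 CPM, and mouse 3, with 1 cell, at 2071. Within single cells, Ccl17 and Ccl22 were found together in 32 of 41 PBS cells and 19 of 39 mono-IL10 cells, and 14 mono-IL10 cells carried Ccl22 without Ccl17, against 5 of PBS. Spearman's rho between them was 0.557 over the 41 PBS cells, 0.300 over 39 mono-IL10 cells and 0.298 over 15 IL10/2-Trikine cells, as a description of cells that share a library and differ in depth.

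**Figure D4:**
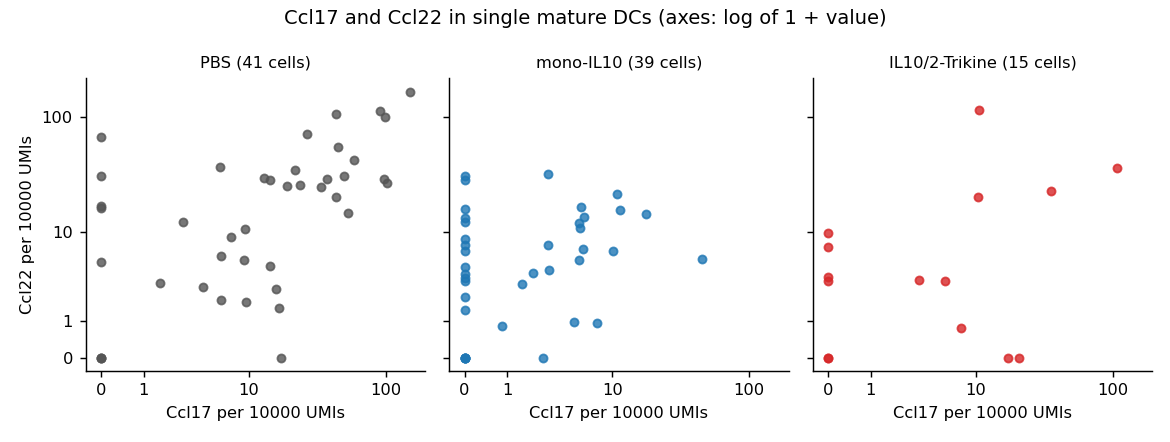
Ccl17 (x axis) and Ccl22 (y axis) in each mature dendritic cell, in UMIs per 10000 UMIs of the cell on log(1 + value) axes, 1 panel per library. The upper right is filled mostly by PBS cells, and 14 mono-IL10 cells lie on the y axis above 0, with Ccl22 but no Ccl17.

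Il12b, the shared subunit of IL-12 and IL-23, was also lower in level, without passing edgeR's test in either fit. It was at 158, 767, 267, 349 and 269 CPM in the PBS mice, and in the mono-IL10 mice at 121 and 176 CPM in mice 2 and 4 and 0 in the other 3. Log2 differences were -2.90 ± 0.73 (adjusted p = 0.240) and -2.40 ± 0.74 (adjusted p = 0.305). Of 11 alternatives to the planned fit it was called in 4 (adjusted p from 2.01e-10 to 1), namely with no filter and without PBS mouse 2, mono-IL10 mouse 1 or mono-IL10 mouse 2. The size ran from -8.62 to -2.10, the former without mono-IL10 mouse 2, when the only mono-IL10 mouse left had 0 UMIs and the value is no measure of size. It rested on few cells, 18 of 41 for PBS, 6 of 39 for mono-IL10 and 3 of 15 for IL10/2-Trikine. Il12a, the other subunit of IL-12, had 0 UMIs in the 95 cells.

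Ifitm1 was low in PBS, at 52.8, 757, 59.4, 244 and 654 CPM, and higher in every mono-IL10 mouse, at 1724, 3086, 1385, 1202 and 11146 CPM. The groups did not overlap. The highest value, in mouse 5, came from 1 of its 2 cells, with 141 UMIs, while the other had 0. In the planned fit of 4 mice its log2 difference was 2.30 ± 0.47 and did not pass (adjusted p = 0.177). Among alternatives to that fit that left no mouse out, Ifitm1 was called with no filter and after thinning. Over all 11 alternatives its size ran from 1.76 to 3.35. The IL10/2-Trikine mice with at least 2 cells were at 1510, 2034 and 2207 CPM, a difference from PBS of 2.34 ± 0.70 that did not pass either (adjusted p = 0.428). Mouse 3, with 1 cell and not in the fit, was at 259 CPM, within the PBS range. The call in the second fit stood without the 14 marker-rich cells and without the 2 of plasmacytoid or endothelial markers, and was lost on leaving out PBS mouse 1, 3, 4 or 5, mono-IL10 mouse 2, 3 or 5, or IL10/2-Trikine mouse 1 or 5, and the size ranged from 2.29 to 3.74 over all mice left out in turn. It was also lost with at least 3 UMIs of Ccr7 and Fscn1 required, at 2.21, with at least 2000 genes, at 2.48, and with no complement or keratin UMI allowed, at 3.13.

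Fabp5, a fatty acid binding protein, and Mt1, a metal-binding metallothionein, lay higher in mono-IL10 and were not called by edgeR in either fit, while DESeq2 called both on the planned mice. Mt1 was chosen after its values were seen. Fabp5 was at 6759, 5631, 1782, 5672 and 6114 CPM in PBS and 14417, 12505, 5194, 10346 and 6877 in mono-IL10, with log2 differences of 1.28 ± 0.25 (adjusted p = 0.162) and 0.93 ± 0.31 (adjusted p = 0.367). Mt1 was at 422, 746, 564, 709 and 1423 CPM in PBS and 2161, 2591, 3215, 821 and 3320 in mono-IL10, with 1.74 ± 0.27 (adjusted p = 0.0637) and 1.62 ± 0.42 (adjusted p = 0.121). Of 11 alternatives to the planned fit, Mt1 was called in 7 (adjusted p from 4.54e-10 to 0.864) and Fabp5 in 4 (9.9e-18 to 0.977). In the IL10/2-Trikine mice with at least 2 cells Fabp5 was at 5313, 4355 and 3678 CPM, the range of PBS, and Mt1 at 727, 887 and 3972. Mouse 3, with 1 cell, is left out. Each group pair overlapped by at least 1 mouse.

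**Figure D5:**
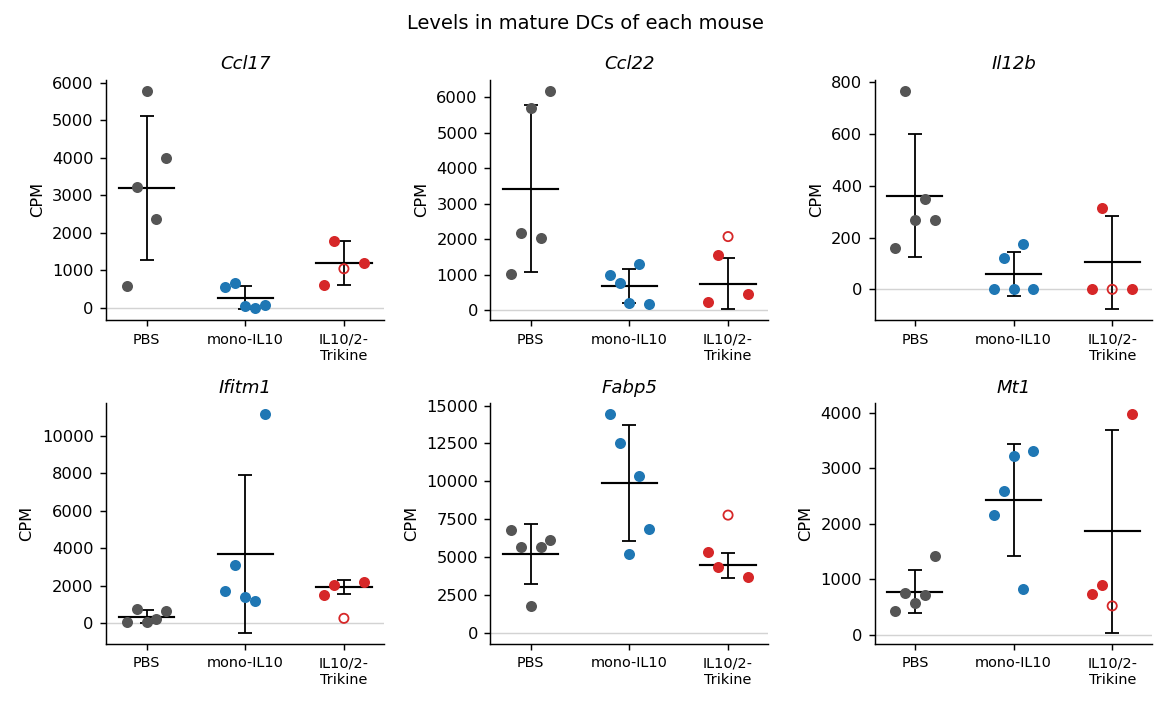
CPM of 6 genes in the mature dendritic cells of each mouse, on linear axes. Filled points are mice with at least 2 such cells, the open point is a mouse with 1, lines are means and bars SD over the filled points. Ccl17 is near 0 in 3 of 5 mono-IL10 mice, and Ifitm1 is above the PBS range in all 5.

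As a list, the maturation program had 1 gene called for mono-IL10 minus PBS and a median that differed between the fits. Of its 29 genes tested in the planned fit 1, Ccl17, was called, 15 had a positive difference and the median was 0.02, beside 708 of 1458 and -0.01 over all genes tested. In the second fit 10 of 23 were positive and the median was -0.18, beside 384 of 784 and -0.01 over all genes tested. In the planned fit Cacnb3 differed by 0.23 ± 0.28 on the log2 scale and Ccl5 by 0.04 ± 0.27 (adjusted p = 0.997 and 1). No value is given for Ccr7, being part of the selection. Cd274 differed by 0.28 ± 0.28, Cd86 by 0.02 ± 0.29, Cd80 by -0.46 ± 0.36 and Cd40 by -0.55 ± 0.45, none past the threshold. Of 18 NF-kB genes 0 were called and the median was -0.15. Of 13 genes of the IL-10 receptor, STAT3 and target list 0 were called, with 9 positive and a median of 0.22, and Stat3 itself at 0.07 ± 0.32. Of 8 MHC class II genes 0 were called, with a median of 0.01.

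For IL10/2-Trikine no gene of any list was called, and no test compares the lists. Over all 784 genes tested, 378 had a positive difference from PBS, with a median of -0.02, and 357 from mono-IL10, with a median of -0.05. Of 23 maturation genes 0 were positive against PBS, with a median of -0.55, and 4 against mono-IL10 (median -0.37). Of 14 MHC class I genes 3 were positive against PBS, with a median of -0.44, and of 13 NF-kB genes 2, with a median of -0.37. The IL-10 receptor and STAT3 list was even, with 4 of 8 positive and a median of 0.02, and MHC class II had 3 of 7 positive and a median of -0.02. Serpinb6b, a protease inhibitor, was at 336, 469 and 588 CPM against 792 to 1923 in PBS, and Cd80 at 224, 183 and 441 CPM against 475 to 654 in PBS. Their log2 differences were -1.29 ± 0.36 (adjusted p = 0.423) and -1.25 ± 0.39 (adjusted p = 0.431). These values rest on 14 cells of 3 mice, and they move with the shallower library and with its higher tumor and fibroblast markers, whose part was not tested. The endothelial markers of this library were those of 1 cell.

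The last comparison asked whether these differences were particular to mature dendritic cells. In barcodes of the macrophage gate Ccl17 was far lower, with 67.8 ± 49.1 CPM in PBS mice, 7.17 ± 2.68 under mono-IL10 and 9.84 ± 4.33 under IL10/2-Trikine (SD, n = 5 each). All other barcodes of the PBS library together stood at 73.3 CPM, and over all libraries the tumor gate stood at 2.48 CPM and the annotated T and NK cells at 0.983 CPM. The part of free RNA in the macrophage values was not tested. In immature dendritic cells it was at 616 ± 162 (n = 4), 489 ± 203 (n = 3) and 630 ± 405 CPM (SD, n = 3). Ifitm1 in macrophages was at 125 ± 41.2, 790 ± 105 and 491 ± 160 CPM, and Fabp5 at 1296 ± 156, 3315 ± 241 and 2628 ± 264 (SD, n = 5 each). Mt1 in macrophages was at 1736 ± 36.2, 3242 ± 529 and 3274 ± 346 CPM (SD, n = 5 each). Near the floor there, Ccl22 was at 4.94 ± 1.16, 1.33 ± 1.05 and 2.22 ± 2.50 CPM, and Il12b at 1.32 ± 0.742, 0.496 ± 0.344 and 0.794 ± 1.17 (SD, n = 5 each). In a model with the mouse as a block, the mono-IL10 minus PBS difference of mature dendritic cells minus that of macrophages was -0.27 ± 0.42 for Ccl17, -0.01 ± 0.42 for Ifitm1 and -0.10 ± 0.51 for Fabp5 (log2, edgeR, adjusted p = 1 for each). Ifitm1 in immature dendritic cells was at 914 ± 596 CPM in PBS (n = 4), 3035 ± 930 in mono-IL10 (n = 3) and 1018 ± 1680 in IL10/2-Trikine mice (SD, n = 3), and the mono-IL10 mice lay above the PBS mice without overlap (1977 to 3724 against 143 to 1485 CPM). Against immature dendritic cells, in 10 mice with at least 2 cells of each kind, the mono-IL10 minus PBS response of mature cells differed by -2.44 ± 0.66 for Ccl17 and by 1.54 ± 0.71 for Ifitm1, neither of which passed over 1135 genes (edgeR, adjusted p = 0.348 and 1).

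Over all genes, 12 of 11591 were called as differing in response between mature dendritic cells and macrophages, or 0.104%, in 4 mice. The model assumed the same spread for both sums, of 12 to 18 mature cells and of 981 to 2182 macrophages per mouse. A gene carried by 1 mature cell can thus be called, and a call may rest on few cells. The 8 with a lower response in mature cells were, by size, G0s2, a lipolysis inhibitor (-5.13 ± 0.93), Hdc, which makes histamine (-4.90 ± 0.99), Pgap6 (-4.05 ± 0.76), S100a9, a neutrophil alarmin (-3.05 ± 0.65), Tspan3, Fchsd2 (-2.28 ± 0.45), Pgf and Areg. The 4 with a higher response were Fabp4, Ccl2, Rnh1 and Plac8, from 3.81 to 2.83. Over all mono-IL10 mature cells, Ccl2 had 28 UMIs in 2 cells, 23 of them in 1. Plac8 had 58 UMIs in 5 of those cells, 39 of them in 1. Fabp4 had 15 UMIs in PBS and 21 in mono-IL10 mature cells, and Rnh1 had 12 and 50. Without the mouse block only Pgap6 and Fchsd2 were called. In mice with at least 2 cells of each kind, 12 of 9922 genes were called for mono-IL10 minus PBS. Hdc, Fchsd2, Pgf, Areg, Fabp4, Rnh1 and Plac8 were not among these. Pooled by library, Pgap6 stood at 101 CPM in PBS and 43.2 in mono-IL10 mature cells, on 26 and 13 UMIs, and at 12.6 and 66.6 CPM in macrophages. Fchsd2 stood at 284 and 159 CPM in mature cells, on 73 and 48 UMIs, and at 67.5 and 93.0 CPM in macrophages. G0s2, Hdc and S100a9 are also expressed by neutrophils, and the mature-cell UMIs of the first pair were few: 50 of G0s2 and 28 of Hdc in PBS and 1 of each in mono-IL10. S100a9 is among the neutrophil markers whose level was uneven between libraries, and 116 of its 181 UMIs in PBS were in 1 cell. That cell was of PBS mouse 5, which was not among the 4 mice of this fit. The UMI counts given here are over all mice of a library. The part of neutrophil RNA was not tested. With at least 2 cells per mouse, 49 of 9922 genes (0.494%) were called for IL10/2-Trikine minus PBS and 23 (0.232%) for IL10/2-Trikine minus mono-IL10. Without the block 0 and 3 were called. The genes with a higher response included Cdh5, Kdr and Plvap, which mark endothelial cells, and each had all its IL10/2-Trikine UMIs (16, 8 and 18) in 1 cell. Without this cell and the PBS cell with plasmacytoid markers the counts were 6 and 9, and the 6 were Areg, Cp, Igfbp7, Mgl2, Plet1 and Serpinb6b. With all cells, the 7 genes with a lower response than in macrophages for IL10/2-Trikine minus PBS were Areg (-13.3 ± 2.6) and Gzma (-12.9 ± 3.4), both at 0 in IL10/2-Trikine so that these are no measure of size, Nudt17 (-4.72 ± 1.26), Pgap6 (-3.34 ± 0.79), Serpinb6b (-3.14 ± 0.57), Serpinb9 (-2.31 ± 0.54) and Ccl5 (-2.07 ± 0.50). Of 34 maturation genes tested 4 were among them, or 11.8%, against 7 of 9922 genes, or 0.0706%, and without the 2 cells Serpinb6b was the 1 still called. These shares were not tested. The list holds genes high in mature cells and was chosen with earlier results of these data known, so nothing is read from the shares. Without the block 0 genes were called. Nudt17 rested on 3 UMIs in IL10/2-Trikine mature cells and on macrophage levels of 0.143 CPM in PBS and 0.612 in IL10/2-Trikine. Gzma had all its 6 PBS UMIs in 1 mature cell, and stood at 18.4 CPM in PBS and 232 in IL10/2-Trikine macrophages. Against immature cells the counts were 0, 1 and 0 of 1135 genes (0%, 0.0881% and 0%), the 1 being Plet1.

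The cells also varied within each library. Among the 15 genes with the highest residual variance were Cst3, Cd74, Fth1, Ccl5, Fabp5, Il1b, Cxcl2, Crip1, H2-Eb1, Malat1, H2-Ab1, Ifitm1, Ccl22 and Ccl17, with residual variances from 11.8 to 6.36 where the median over 5390 genes was 1.07. The measure used a fixed overdispersion of 0.01, so abundant genes, such as Cst3 at 27400 CPM, can rank high by their level. H2-Ab1 is part of the selection. Ccl5 was found in 79 of the 95 cells and Cxcl2, a chemokine for neutrophils, in 52, while the cytokine gene Il1b was found in 93. Cxcl2 and Il1b were found together in 24 of 41 PBS, 19 of 39 mono-IL10 and 9 of 15 IL10/2-Trikine cells, with rho of 0.455, 0.205 and 0.566. Il12b was paired with Ccl17 in 17 of its 18 PBS cells but in 1 of its 6 mono-IL10 cells. These counts describe cells that share mice and libraries, and were not tested.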

How the data were processed

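The authors' filtered matrices, made with Cell Ranger on GRCm39, were read as deposited: raw UMI counts of 34187 genes and 5 hashtags per barcode, with no normalization. Seurat 5.1.0 and DESeq2 1.46.0 are named in the submitters' processing notes. The T and NK cell annotation was used to exclude cells and as a comparison gate. Doublets were limited by the hashtag and marker limits, and no caller was run. Immature dendritic cells had Ccr7 at 0, and macrophages at least 20 complement UMIs. CPM is UMIs per 1000000 gene UMIs over a mouse's cells or a gate's pooled cells. Counts were summed per mouse and tested with edgeR 4.0.16 (limma 3.58.1, R 4.3.3; TMM, filterByExpr, quasi-likelihood, Benjamini-Hochberg over all genes tested), with DESeq2 1.42.0 as an alternative, and shares by exact permutation over mice with scipy 1.17.1. The edgeR script was tested on simulated data. Genes were named by a rule: calls by size of change, up to 6 of each list by call and level, the 4 markers, the 20 highest ratios and the 15 highest variances. Named outside it, after their values were seen, were Mt1, Serpinb6b, Relb, Ciita, Tap1, Pdcd1lg2, Mki67, Il12a, Xist, the marker genes given as at 0 and the cytokine receptors. The members and lists were chosen with earlier results of these data known. Hashtag numbers name mice and do not pair them across groups. Depth was 364814102 to 515236552 gene UMIs per library. Some items are not reported here.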

Additional observations from a re-analysis of the deposited data

Results flagged for a closer look

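A few values stood apart from the other mice of their group, by the gap to the nearest mouse relative to the group's range. Ifitm1 was at 11146 CPM in mono-IL10 mouse 5, which held 2 mature dendritic cells, 1 with all 141 UMIs and the other with 0. Fabp5 was at 1782 CPM in PBS mouse 3, below the other PBS mice. The mature share of gated dendritic cells was 100% in IL10/2-Trikine mouse 3, where it rested on 1 cell. In all 22 groups of values were examined and 3 were set apart, where about 1 in 20 would be by chance.

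The response of some genes was called as differing between kinds of cell. For mono-IL10 minus PBS, 12 genes were called between mature dendritic cells and macrophages, and 2 without the mouse block. With at least 2 cells per mouse the count was 49 for IL10/2-Trikine minus PBS and 23 for IL10/2-Trikine minus mono-IL10. These fell to 0 and 3 without the block. Without the 2 cells of plasmacytoid or endothelial markers they were 6 and 9. Between mature and immature dendritic cells 1 gene, Plet1, was called for IL10/2-Trikine minus PBS, and 0 without the block.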

How the results depend on the processing

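No paired analysis was possible because the hashtag numbers, though used in every group, only name mice and the labels pair none of them. No paired value across treatments is therefore given, and the mouse block above joins kinds of cell within a mouse. The difference in share among immune barcodes for IL10/2-Trikine minus PBS was past the threshold with all barcodes of 1 hashtag, non-immune ones included, as denominator (-0.149 percentage points). Signs turned in shares that were not past the threshold: with the top hashtag at 90% or more, mono-IL10 minus PBS was -0.0182 among immune barcodes and -5.79 among gated dendritic cells, and IL10/2-Trikine minus mono-IL10 was 12.04. IL10/2-Trikine minus PBS among gated dendritic cells was -3.01 with at least 3 UMIs of Ccr7 and Fscn1 and -21.2 after thinning to 4000 UMIs. With 1 mouse left out, mono-IL10 minus PBS ranged from -0.0913 to 0.103 among immune barcodes, where IL10/2-Trikine minus mono-IL10 ranged from -0.272 to -0.0772, and among gated dendritic cells IL10/2-Trikine minus PBS ranged from -11.25 to 8.19 and IL10/2-Trikine minus mono-IL10 from -17.0 to 2.44.

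Counts of called genes moved widely. For mono-IL10 minus PBS in mice of at least 10 cells (1 gene) they were 3 with DESeq2, 2 by library size alone, 25 with no filter, 4 after thinning, 0 with at least 3 UMIs of Ccr7 and Fscn1, 3 with at least 1 UMI and 2 in mice of at least 2 cells. In the fit of at least 2 cells (2 genes) they were 4 with DESeq2, 24 with no filter, 4 with only these groups, 4 after thinning, 0 with at least 3 UMIs, 0 with no complement or keratin UMI, 1 with at least 2000 genes and 1 without marker-rich cells. For IL10/2-Trikine minus PBS (0 genes) they were 36 with no filter, 1 after thinning and 12 with at least 2000 genes. For IL10/2-Trikine minus mono-IL10 (0 genes) they were 2 with DESeq2, 42 with no filter, 1 with only these groups, 1 after thinning, 1 with at least 1 UMI and 20 with at least 2000 genes. With 1 mouse left out the counts ranged from 0 (without PBS mouse 4) to 33 (without mono-IL10 mouse 2) in the first fit, and in the second from 0 to 3 for mono-IL10 minus PBS and from 0 to 4 for IL10/2-Trikine minus mono-IL10. The lone mouse then left in a group is assumed to vary like the others.

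Differences of response from macrophages were called for 2 genes (no block) and 6 (no filter) for mono-IL10 minus PBS, for 0 (no block) and 6 (without the 2 cells of plasmacytoid or endothelial markers) for IL10/2-Trikine minus PBS and for 3 (no block) and 9 (without the 2 cells) for IL10/2-Trikine minus mono-IL10. From immature cells they were called for 6 (no filter) for mono-IL10 minus PBS and for 0 (no block) and 4 (no filter) for IL10/2-Trikine minus PBS. The cause of these shifts was not tested. Ccl17, Ccl22, Il12b, Ifitm1, Fabp5 and Mt1 kept their sign over 278 alternatives of 15 values. For IL10/2-Trikine minus PBS only Ccl17, Ccl22 and Ifitm1 were followed, and the other named genes were not counted. Not run for want of cells were at least 20 cells per mouse, the strictest limits in mice of at least 10 cells, and any IL10/2-Trikine comparison or immature-cell difference at 10 cells. Low cell numbers limit every comparison, and the shallow IL10/2-Trikine library those that include it.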
